A study of Drosophila melanogaster with 14 samples.

Results

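The genes described here are 10 markers of the adult muscle precursors of the Drosophila melanogaster wing disc and of the fibroblast growth factor (FGF) pathway that acts on them: twi, Mef2, zfh1, Him, htl, stumps, ths, pyr, Ama and kirre. They were chosen by name, by looking up their FlyBase identifiers in a table of read counts for 17807 gene IDs, and all 10 were found and had enough counts to be tested. RNA was measured in 6 libraries of whole wing imaginal discs, dissected from wandering larvae late in the third instar that had been raised at 25 degrees C. The 3 nub1 libraries came from larvae of genotype yw;nub[1], which carry a mutant allele of the POU domain gene nubbin, and the 3 wildtype libraries from yw larvae, so both genotypes share the yw background. No source used here gives the larvae's sex or the number of discs per library. Nothing in the labels says that the replicates came from separate crosses, so p-values measure only how much these 3 libraries per genotype vary, possibly for technical reasons.

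Adult muscle precursors, also called myoblasts, are mesodermal cells that lie under the notum epithelium of the wing disc, proliferate during larval life and later fuse to form the flight muscles. Their undifferentiated state is kept by transcription factors such as Twist and Zfh1 and by Notch signalling. They carry the FGF receptor Heartless, which responds to the FGF8-like ligands Thisbe and Pyramus and needs the adaptor Stumps to pass the signal to Ras and MAP kinase. The nubbin gene itself is best known from the pouch epithelium, which gives rise to the wing blade.

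The markers did not move as a block. The FGF receptor gene htl and its adaptor gene stumps were about 1.60-fold and 1.48-fold higher in nub1 discs, while the secreted adhesion protein gene Ama and the muscle differentiation inhibitor gene Him fell to 0.563 and 0.655 of the wildtype level. Smaller rises were measured for kirre, pyr, twi and ths, and neither Mef2 nor zfh1 passed the test. Thus 6 of 10 members rose and 2 fell, with edgeR adjusted p under 0.05. Among all 9186 genes tested, 24.4% were called higher and 23.9% lower, 48.3% in either direction, so a call by itself is common in this comparison. The median change was 0.13 on the log2 scale over the 10 members and -0.00303 over all genes tested.

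Library totals were 72134981 to 83448836 counts for nub1 and 58434785 to 82407049 for wildtype. In the nub1 libraries nub averaged 10.9 CPM (counts scaled to the library total, with edgeR's TMM factors), against 329 CPM in wildtype, and its paralog pdm2 0.107 against 57.1 CPM. Replicate 3 of nub1 stood apart from the other nub1 libraries, with a chi-square per degree of freedom of 32.0 and 24.7 against replicates 1 and 2; that between replicates 1 and 2 was 4.11; the wildtype pairs gave 15.4 to 17.6. It also had the lowest summed level of 8 ecdysone-related staging genes, 3292 CPM against 4962 and 4828 CPM in nub1 replicates 1 and 2; the wildtype libraries had 7312 to 9031 CPM. One of these genes, the nuclear receptor gene Hr4, had 4.08 CPM in nub1 replicate 3, against 96.8 and 108 CPM in the other nub1 libraries and 185 to 318 CPM in wildtype. Every member was therefore also tested without that library.

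**Figure D1:**
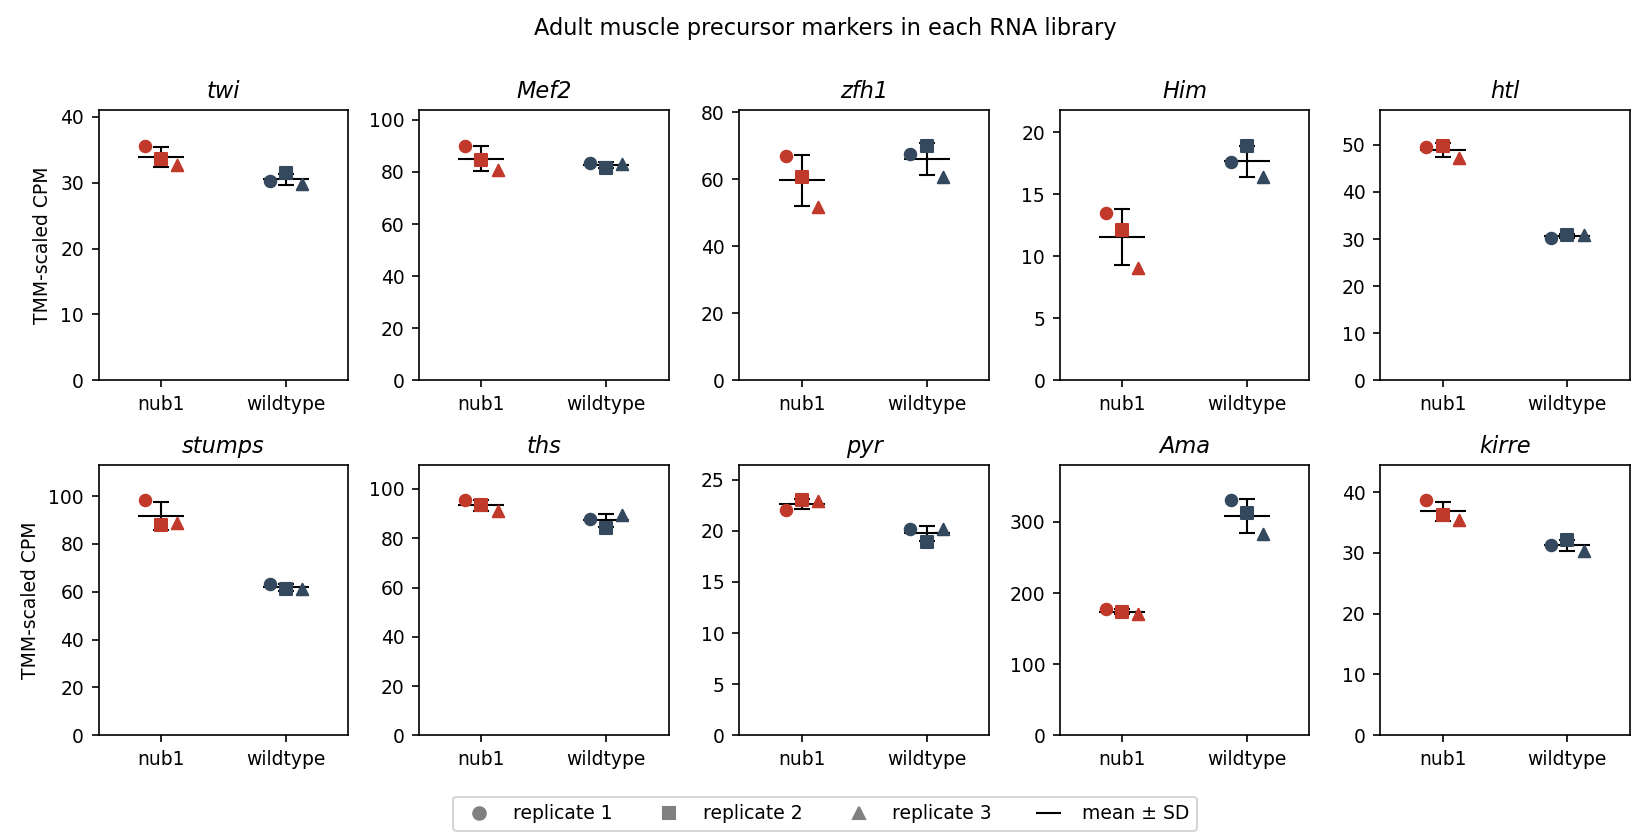
TMM-scaled CPM of each of the 10 genes (vertical axes, each starting at 0) in the 3 nub1 and 3 wildtype libraries, with the replicate number as the symbol and the mean ± SD as lines. The groups do not overlap for htl, stumps, Ama, Him, kirre, pyr, twi and ths, and they overlap for Mef2 and zfh1.

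Among the transcription factors, twi encodes the bHLH protein that specifies mesoderm and marks the undifferentiated precursors (FBgn0003900; dm6 2R, 22985374 to 23048325). Its values were 35.6, 33.5 and 32.7 CPM in nub1 replicates 1 to 3, against 30.2, 31.5 and 29.9 CPM in wildtype. All nub1 libraries lay above all wildtype libraries, but the nearest libraries were only 3.70% apart. This was a rise of 11.3% (log2 fold change 0.15 ± 0.04, with its SE; edgeR adjusted p = 0.0146). The call was barely kept without nub1 replicate 1 or wildtype replicate 3 (edgeR adjusted p = 0.0480 and 0.04998). The annotated span of twi covers other genes, of which CG42741 had 3932 counts over the nub1 and 2099 over the wildtype libraries, and no source used here says whether counting was stranded, so shared reads cannot be separated.

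Mef2 encodes the MADS box factor that switches on muscle structural genes and is present in the precursors before they differentiate (FBgn0011656; 2R, 9913496 to 9958858). It had 90.1, 84.6 and 80.7 CPM in nub1 libraries, against 83.6, 81.6 and 82.9 CPM in wildtype. The groups overlapped, with nub1 replicate 3 below all wildtype libraries. At 0.04 ± 0.04, the log2 fold change was not called (edgeR adjusted p = 0.406), and its 95% interval ran from 0.968-fold to 1.10-fold.

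The repressor gene zfh1, whose zinc finger and homeodomain protein holds precursors in an undifferentiated state, also showed no call (FBgn0004606; 3R, 30765926 to 30789202). Its values were 66.9, 60.6 and 51.6 CPM in nub1 discs, against 67.5, 70.0 and 60.7 CPM in wildtype. Replicate 3 was the lowest library of each genotype, by 0.30 on the log2 scale below the mean of replicates 1 and 2 in nub1. The log2 fold change was -0.15 ± 0.11 (edgeR adjusted p = 0.315), with an interval of 0.748-fold to 1.09-fold. With the replicate number as a block the change was the same size but passed the test (-0.15 ± 0.04; edgeR adjusted p = 0.0271), while without nub1 replicate 3 it was -0.05 (edgeR adjusted p = 0.595).

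Him, named after its mutant phenotype of holes in muscle, encodes a nuclear protein that opposes Mef2 activity and is a target of Notch in the precursors (FBgn0030900; X, 18209427 to 18210741). It had 13.5, 12.2 and 9.08 CPM in nub1 libraries, against 17.6, 18.9 and 16.4 CPM in wildtype. The groups did not overlap, and nub1 replicate 3 was the lowest, by 0.50 on the log2 scale below the mean of the other nub1 libraries. Its log2 fold change was -0.61 ± 0.15 (edgeR adjusted p = 0.0178). Without nub1 replicate 3 the fall was smaller but more even between libraries (-0.46 ± 0.07; edgeR adjusted p = 0.00111). The call was lost without wildtype replicate 1 or 2 (0.0692 and 0.0580, by edgeR adjusted p) and when low counts were left unfiltered (0.0571), and the alternatives ranged from 1.84e-05 to 0.0692.

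The receptor gene htl gave the largest rise of the 10 genes (FBgn0010389; 3R, 18045216 to 18052984). Its values were 49.5, 49.9 and 47.3 CPM in nub1 libraries, against 30.1, 30.8 and 30.9 CPM in wildtype. The lowest nub1 library was 52.9% above the highest wildtype library. The log2 fold change was 0.67 ± 0.03 (edgeR adjusted p = 7.45e-07), with an interval of 1.52-fold to 1.68-fold. It lay between 0.66 and 0.71 under all 15 alternatives. Of the genes tested, 83.7% changed by less.

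The adaptor gene stumps, also known as dof, rose with it (FBgn0020299; 3R, 14577217 to 14608079). It had 98.2, 87.8 and 88.9 CPM in nub1 libraries, against 63.4, 61.0 and 61.1 CPM in wildtype. The groups were well apart, the nearest libraries differing by 38.4%. Its log2 fold change was 0.57 ± 0.04 (edgeR adjusted p = 1.43e-05), and 0.59 without nub1 replicate 3. Stumps also serves the second FGF receptor of the fly, Breathless, whose gene btl is a tracheal marker. In the same libraries btl had 17.7, 16.2 and 14.4 CPM in nub1 discs, against 15.1, 14.0 and 13.6 CPM in wildtype, and did not pass the test (log2 fold change 0.18 ± 0.08; edgeR adjusted p = 0.0919).

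The ligand genes ths and pyr are expressed by epithelial cells rather than by the precursors, and they lie near each other on 2R (ths, FBgn0033652, 11756817 to 11814424; pyr, FBgn0033649, 11712263 to 11726345). For ths the values were 95.4, 93.4 and 91.1 CPM in nub1 libraries, against 88.0, 84.2 and 89.6 CPM in wildtype. The groups were apart by only 1.73%, and the log2 fold change was 0.10 ± 0.03 (edgeR adjusted p = 0.0321). This call was lost without nub1 replicate 1 or 2 or wildtype replicate 1 or 2 (edgeR adjusted p = 0.0990, 0.0878, 0.0531 and 0.0866; 0.0103 to 0.0990 over the alternatives). For pyr the values were 22.1, 23.0 and 22.9 CPM in nub1 libraries, against 20.1, 18.9 and 20.2 CPM in wildtype. Its log2 fold change was 0.20 ± 0.04 (edgeR adjusted p = 0.00430), and the call held under all 15 alternatives. The 95% intervals of the fold change ended at 1.12 for ths and 1.22 for pyr, below the lower ends for htl (1.52) and stumps (1.38).

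**Figure D2:**
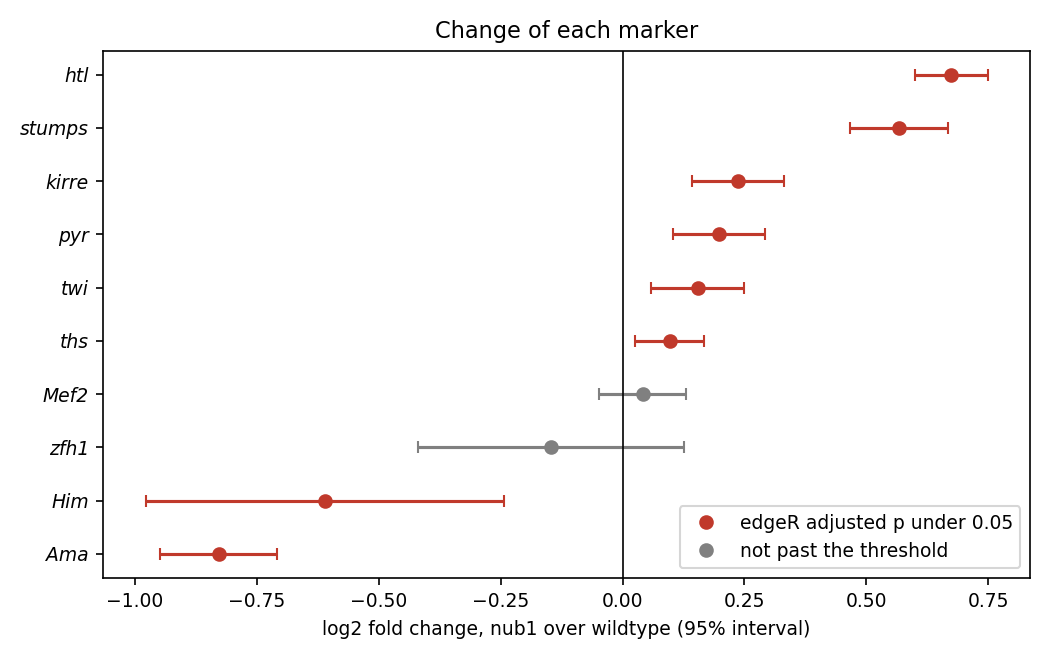
Log2 fold change of each of the 10 genes, nub1 over wildtype (horizontal axis), with its 95% interval from the edgeR fit; red points passed an adjusted p of 0.05 and grey points did not. htl (0.67) and stumps (0.57) stand at the upper end, Ama (-0.83) and Him (-0.61) at the lower end, and the intervals of Mef2 and zfh1 cross 0.

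Of the adhesion genes, Ama showed the largest change of all 10 members. It encodes Amalgam, a secreted immunoglobulin domain protein that joins cells by binding the transmembrane protein Neurotactin, and it lies in the Antennapedia complex (FBgn0000071; 3R, 6762593 to 6765261). Its values were 178, 173 and 171 CPM in nub1 libraries, against 330, 312 and 283 CPM in wildtype. The lowest wildtype library was 59.6% above the highest nub1 library, and the nub1 libraries were close to each other. The log2 fold change was -0.83 ± 0.05 (edgeR adjusted p = 7.11e-06), and it lay between -0.89 and -0.77 under the alternatives.

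kirre, also known as dumbfounded, encodes the immunoglobulin superfamily receptor through which founder cells attract fusing myoblasts (FBgn0028369; X, 2740384 to 3134532). It had 38.6, 36.3 and 35.5 CPM in nub1 libraries, against 31.4, 32.1 and 30.3 CPM in wildtype. The groups did not overlap and the log2 fold change was 0.24 ± 0.04 (edgeR adjusted p = 0.00167). Its annotated span of 394149 bases holds 23 other genes, among them its relative rst, which was not called (-0.08 ± 0.04; edgeR adjusted p = 0.0986). Another of them, CG32795, had 10984 counts over the nub1 and 10371 over the wildtype libraries, more than kirre itself with 8609 and 6251, and here too shared reads cannot be separated. In all, 8 of the 10 members had groups that did not overlap, against 60.0% of the genes tested.

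Ratios between markers within a library do not depend on how libraries are scaled to each other. The ratio of htl to Ama counts was 0.279, 0.288 and 0.276 in nub1 libraries, against 0.0913, 0.0987 and 0.109 in wildtype, 2.83-fold higher in nub1. The ratio of Mef2 to Him was 6.67, 6.95 and 8.89 in nub1 libraries, against 4.74, 4.31 and 5.04 in wildtype, 1.59-fold higher. For htl to twi, a receptor and a transcription factor of the same cells, it was 1.39, 1.49 and 1.45 in nub1 libraries, against 0.998, 0.978 and 1.04 in wildtype. These 3 ratios were above wildtype in all nub1 libraries, as the values of the single genes given above already imply. They restate the changes of htl, Ama and Him and are not separate evidence. The ratio of the ligand genes, ths to pyr, was 4.32, 4.06 and 3.98 in nub1 libraries, against 4.37, 4.45 and 4.44 in wildtype, a difference of -0.10 on the log2 scale. Each of the 4 ratios gave p = 0.10 in a two-sided exact permutation test (0.10 also after adjustment over the 4), the smallest value that 3 against 3 libraries can give, so none could pass 0.05. Of the scaled counts on the 10 members, Ama took 25.8 to 27.1% in nub1 libraries, against 40.2 to 43.3% in wildtype.

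**Figure D3:**
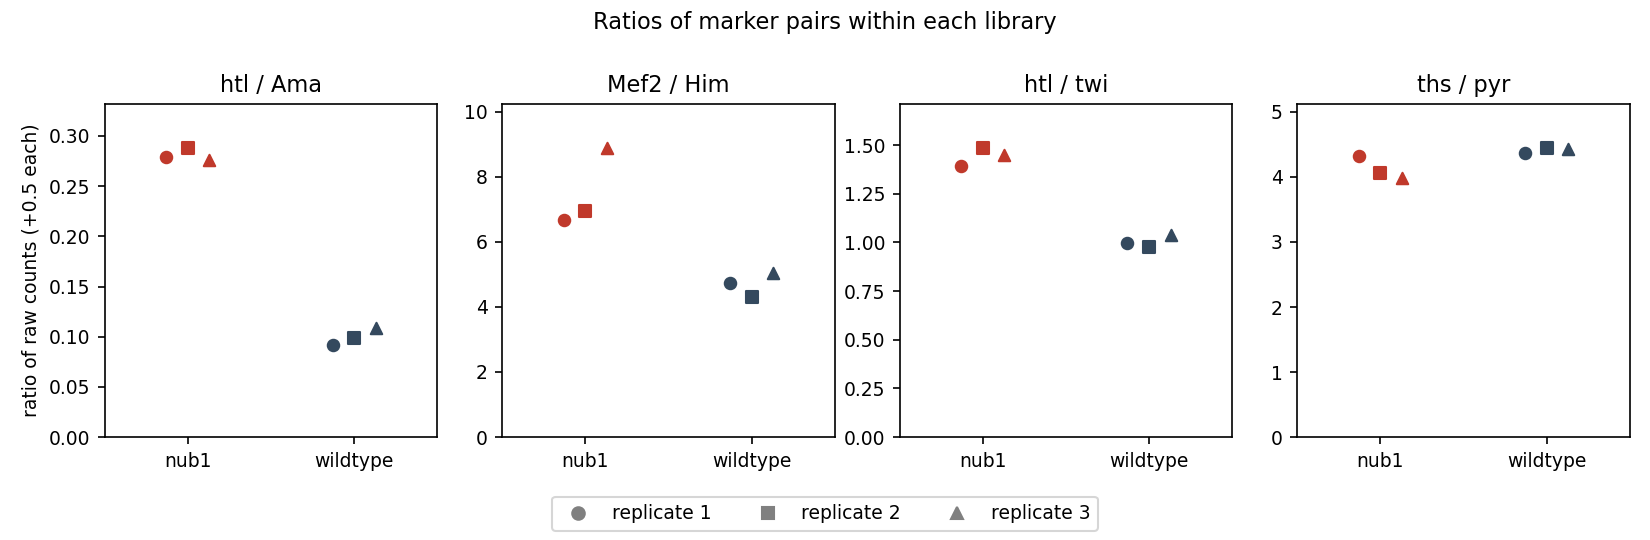
Ratio of raw counts of 4 pairs of genes within each library (vertical axes starting at 0), with the 3 nub1 libraries left of the 3 wildtype libraries and the replicate number as the symbol. htl over Ama is 0.276 to 0.288 in nub1 and 0.0913 to 0.109 in wildtype, and ths over pyr differs least.

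A sum was taken over 6 of the members (twi, Mef2, Him, htl, stumps and zfh1), leaving out Ama, kirre, ths and pyr. It was 331 ± 21.9 CPM in nub1 and 289 ± 6.61 CPM in wildtype libraries (SD, n = 3 each), a ratio of 1.14. The 6 genes did not rise together. On average stumps had 91.6 CPM in nub1 against 61.8 CPM in wildtype, and htl 48.9 against 30.6 CPM. Differences were small for twi (34.0 against 30.5 CPM) and Mef2 (85.1 against 82.7 CPM). Lower averages in nub1 were those of zfh1 (59.7 against 66.1 CPM) and Him (11.6 against 17.7 CPM). Over all 10 members the sum was lower in nub1, at 658 ± 28.5 CPM against 736 ± 28.8 CPM in wildtype libraries, a ratio of 0.893. Ama alone averaged 174 CPM in nub1 and 309 CPM in wildtype libraries. The direction of the sum thus depends on which members are included. In whole discs, more or fewer cells of a type and more or less RNA per cell cannot be told apart. Levels of the surrounding epithelium moved too. In the pouch list, 0 of 7 tested genes rose and 7 fell. Its summed level was 380 to 427 CPM in nub1 libraries, against 1108 to 1161 CPM in wildtype. One of the 7 is nub, which the genotype targets. With averages of 10.9 CPM in nub1 and 329 CPM in wildtype libraries, nub makes up a large part of that difference. The examples with the smallest p were kn, dve, nab and Dll, with log2 fold changes of -3.38, -1.80, -2.07 and -0.92. In the notum list, of the epithelium over the precursors, 4 of 8 tested genes rose and 0 fell, with a summed level of 866 to 939 CPM in nub1 libraries, against 784 to 822 CPM in wildtype. These were tup (0.42 ± 0.03), caup (0.28), mirr (0.23) and ush (0.22), while pnr, eyg, toe and ara did not pass the test. In this list 1 gene fell without nub1 replicate 1 or with the replicate block. Its median log2 fold change was 0.14, beside 0.13 for the 10 members. The part of these epithelial levels in the members' values was not tested.

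In the list of the Ras and MAP kinase relay downstream of the receptor, 4 of 16 tested genes rose, 3 fell and 9 were not called, and the median log2 fold change was -0.03. The largest change was in pnt, which encodes the ETS activator at the end of the pathway, with 63.0, 58.9 and 63.0 CPM in nub1 libraries, against 50.9, 47.5 and 48.9 CPM in wildtype (log2 fold change 0.33 ± 0.04; edgeR adjusted p = 0.000165). All nub1 libraries were above wildtype. The gene of the feedback inhibitor Sprouty, sty, fell (-0.23 ± 0.04), and the exchange factor gene Sos and the scaffold gene cnk rose (both 0.18). The MAP kinase gene rl itself fell (-0.14 ± 0.05, edgeR adjusted p = 0.0286). The other called genes were aop, which fell (-0.17 ± 0.04), and drk, which rose (0.08 ± 0.03). These genes also serve EGFR signalling in the epithelium.

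Genes of myoblast fusion, which takes place after the larval stage, mostly did not pass the test: 2 of 18 tested genes rose, 2 fell and 14 were not called, with a median of -0.01. Swip-1, encoding an actin-binding protein of fusing cells, rose (0.21 ± 0.03), as did the GTPase gene Rac2 (0.13), and Ced-12, the fly ELMO gene, fell by 0.09 on the log2 scale. The myoblast-specific membrane protein gene sing had 6, 4 and 1 counts in nub1 libraries, against 29, 15 and 29 counts in wildtype, and fell (edgeR adjusted p = 0.00118) at a level close to the limit of detection, passing the filter on low counts through the wildtype libraries. The Rac2 call was lost without nub1 replicate 1 or 2 or wildtype replicate 2 or 3 (edgeR adjusted p = 0.0649, 0.0969, 0.0847 and 0.0871). The Ced-12 call was lost without any one of the 6 libraries (edgeR adjusted p = 0.0608 to 0.145). It was also lost under the other scalings and filters (edgeR adjusted p = 0.0542 to 0.190) and by the DESeq2 Wald test (adjusted p = 0.135). Leaving out nub1 replicate 1 or 2 or wildtype replicate 2 or 3 left 1 rise, and leaving out nub1 replicate 2 or 3 or any wildtype replicate left 1 fall. The founder and fusion-competent cell receptor genes rst and sns did not pass the test.

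Among regulators of adult muscle, 1 of 14 tested genes rose and 6 fell, with a median of -0.08. The coactivator gene eya fell to 19.1, 17.9 and 15.6 CPM in nub1 libraries, against 35.5, 34.7 and 29.6 CPM in wildtype (-0.92 ± 0.10; edgeR adjusted p = 0.000271), and the groups did not overlap. how, which encodes an RNA-binding protein needed for muscle and tendon maturation, fell by 0.36 ± 0.06 on the log2 scale, vg, the selector of indirect flight muscle precursors, by 0.27 and the homeodomain cofactor gene exd by 0.19. Of these, vg and exd are also expressed widely in the disc epithelium. The bHLH gene nau, the fly MyoD, was at 1.49 CPM in nub1 and 1.44 CPM in wildtype libraries and was not called (0.05 ± 0.16; edgeR adjusted p = 0.817). The 1 rise, salm, was lost without nub1 replicate 1 or 2 or wildtype replicate 2 or 3, without which 0 genes of the list rose, and 2 rose without nub1 replicate 3 or with the replicate block. None of the 10 transcription factor genes of embryonic mesoderm and its derivatives (sna, tin, bap, bin, Hand, slou, eve, lbe, lbl and Kr) had enough counts to be tested. Over 3 libraries tin, the most counted of them in nub1, had 30 counts in nub1 and 12 in wildtype, and bap, eve and lbe had 0 counts in all 6 libraries, which allows a level of up to 0.0360 to 0.0513 CPM per library (3 counts of its total, counting error only).

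Notch pathway genes were examined because Notch acts on twi and Him in the precursors. In this list 2 of 14 tested genes rose and 5 fell, with a median of -0.08. The glycosyltransferase gene fng rose (0.53 ± 0.03), and the ligand genes Delta (-0.32 ± 0.04) and Ser (-0.20 ± 0.03) and the effector gene Su(H) (-0.15 ± 0.03) fell. The target genes E(spl)m6-BFM and E(spl)m3-HLH were not called (-0.06 ± 0.11 and -0.07 ± 0.06; edgeR adjusted p = 0.709 and 0.382). Without nub1 replicate 1 or 2 or wildtype replicate 1 or 3, 1 gene of this list rose.

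In the adhesion and matrix list 3 of 14 tested genes rose and 4 fell, with a median of -0.01, and the largest fall was in the gene of Amalgam's binding partner. This gene, Nrt, had 77.2, 75.1 and 56.9 CPM in nub1 libraries, against 194, 185 and 163 CPM in wildtype. The groups did not overlap, and the log2 fold change was -1.37 ± 0.14 (edgeR adjusted p = 0.00121; -1.45 to -1.25 over the alternatives). The genes of both proteins of this adhesion pair, Ama and Nrt, were thus lower in nub1 discs. The integrin alpha subunit gene if fell (-0.78 ± 0.06), while trol, encoding the basement membrane proteoglycan perlecan, rose to 859 ± 7.27 CPM in nub1 discs, against 509 ± 19.1 CPM in wildtype (SD, n = 3; log2 fold change 0.76 ± 0.03; edgeR adjusted p = 3.38e-07). SPARC, encoding a collagen-binding matrix protein, rose as well (0.64 ± 0.05). The beta integrin gene mys, the alpha subunit gene mew and the talin gene rhea did not pass the test. Over all 6 pathway lists, 12 of 76 tested genes rose and 20 fell, with 7 rises without nub1 replicate 1 or 2. Of all 9186 genes tested, 24.4% were called higher and 23.9% lower.

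**Figure D4:**
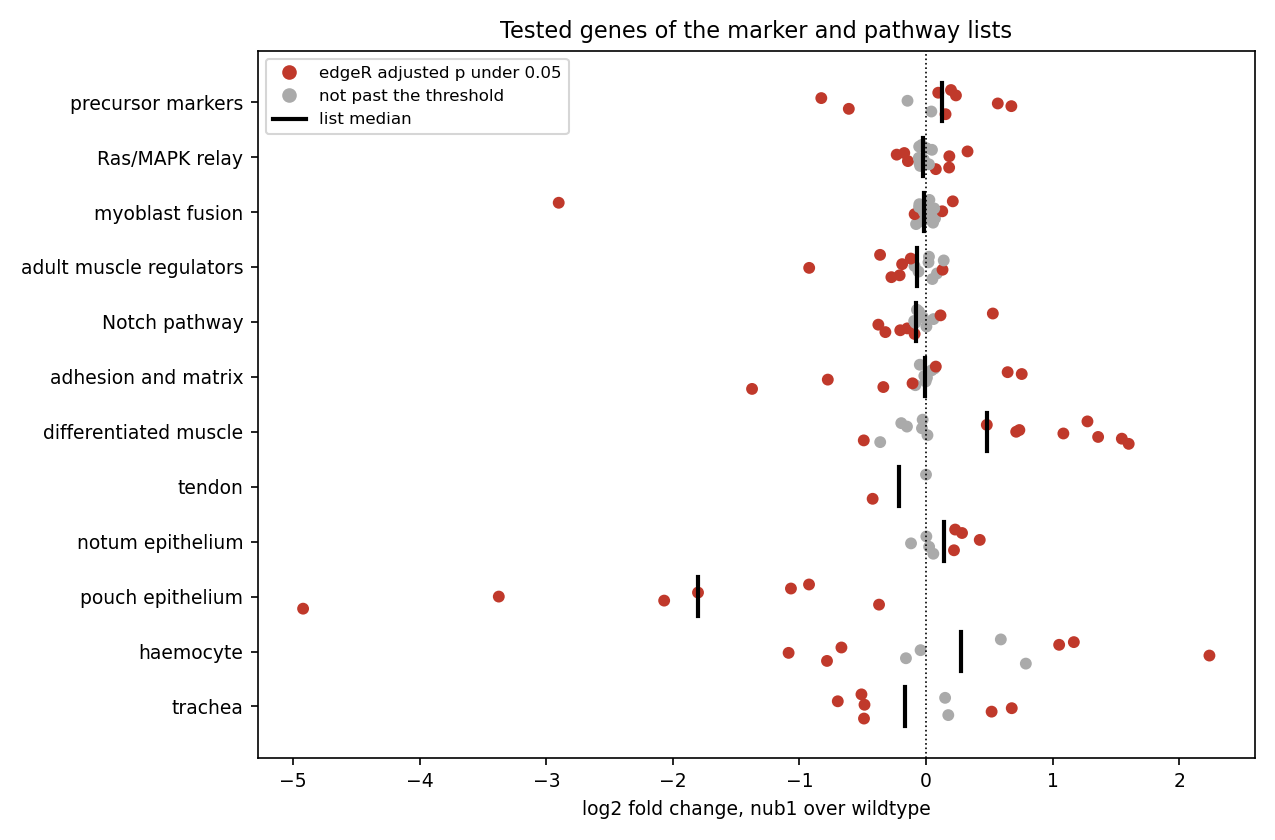
Log2 fold change, nub1 over wildtype (horizontal axis), of each tested gene of the 10 markers and of 11 other gene lists (rows), red where the edgeR adjusted p was under 0.05, with a black bar at each list's median. The fusion, Ras/MAPK, Notch and adhesion lists centre near 0, differentiated muscle genes lie mostly above it and pouch genes below it.

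Markers of cells that could accompany the precursors were measured in the same libraries. In the differentiated muscle list 8 of 15 tested genes rose and 1 fell, with a median of 0.48. Mlc2, a myosin light chain gene, had 24.1, 26.0 and 22.2 CPM in nub1 libraries, against 9.59, 9.76 and 8.84 CPM in wildtype (1.36 ± 0.07; edgeR adjusted p = 8.14e-07). Mlc1, Mlp60A and up rose by 1.55, 1.28 and 0.71 on the log2 scale, at 1.40 to 3.41 CPM on average in nub1 libraries, against 0.574 to 2.08 CPM in wildtype. The summed level of the list was 928 to 967 CPM in nub1 libraries, against 923 to 954 CPM in wildtype, and was mostly that of Tm1 (757 and 751 CPM on average; edgeR adjusted p = 0.756), which epithelial cells also express. The 1 fall was in Act87E (-0.49 ± 0.14); 0 fell without nub1 replicate 1 or wildtype replicate 1, and 3 fell with the replicate block. Under the stricter filter, which kept genes reaching 5 CPM or more in 3 libraries, only Mlc2 of these genes remained called higher. In the tendon list sr fell (-0.42 ± 0.13) and Tsp did not pass the test; the sr call was lost without nub1 replicate 2 or wildtype replicate 1 or 2 (edgeR adjusted p = 0.0878, 0.143 and 0.121), where 0 genes of the list fell.

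In the haemocyte list 3 of 10 tested genes rose and 3 fell, with a median of 0.27 and a summed level of 448 to 484 CPM in nub1 libraries, against 220 to 292 CPM in wildtype. Most of this sum was that of the collagen IV genes Col4a1 and vkg (1.05 ± 0.12 and 1.17 ± 0.13), while the receptor gene NimC1 rose (2.24 ± 0.32) and the GATA factor gene srp fell (-0.78 ± 0.21) at low levels. Without wildtype replicate 1 there were 5 rises, and leaving out any nub1 library left 1 fall. In the tracheal list 2 of 8 tested genes rose and 4 fell, with a summed level of 2132 to 2347 CPM in nub1 libraries, against 2261 to 2443 CPM in wildtype; verm and serp rose (0.68 and 0.52) and trh and vvl fell (both -0.49). Without nub1 replicate 3, and with the replicate block, 4 genes of this list rose. Levels within the list differed widely, with verm at 802 CPM and btl at 16.1 CPM on average in nub1 libraries. Which cells express them here was not tested. In the fat body list 2 of 7 tested genes rose (Lsp1alpha and apolpp) and 2 fell (Fbp1 and Apoltp), with a summed level of 26.3 to 31.9 CPM in nub1 libraries, against 22.1 to 58.0 CPM in wildtype; 4 fell without wildtype replicate 3 and 1 without nub1 replicate 1 or 3, where the Fbp1 call was lost (edgeR adjusted p = 0.0532 and 0.0540). In the staging list 2 of 8 tested genes rose, chinmo (1.71 ± 0.34) and Eip74EF (0.21), and 4 fell. The falls were in Eip78C (-1.71 ± 0.43), ImpE2 (-1.62 ± 0.42), Eip75B (-0.75) and br (-0.31). ImpE2 averaged 1474 CPM in nub1 and 4519 CPM in wildtype libraries. Leaving out 1 library left 1 to 3 rises and 1 to 5 falls in the staging list, with 1 rise without nub1 replicate 2 or wildtype replicate 1 or 2, 1 fall without wildtype replicate 2 and 2 falls without nub1 replicate 1 or 2 or wildtype replicate 1 or 3. The chinmo call was lost without nub1 replicate 2 or wildtype replicate 1 or 2 (edgeR adjusted p = 0.0511, 0.0580 and 0.0503), and the br call without wildtype replicate 2 (0.0530). The part of these cell types and of larval stage in the members' values was not tested.

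Genes whose profile over the 6 libraries was most like that of the 2 members with the largest changes were named by the Euclidean distance between log2 CPM values centred on each gene's mean, among 6795 other genes whose mean reached 5 CPM. For htl these were CG8303, verm of the tracheal list, the RNA polymerase II subunit gene Polr2B, rtet and CG5001, at distances of 0.0548 to 0.0999. For Ama they were lncRNA:CR43650, CG15822, hui, CG9427 and the coat protein gene Sec31, at distances of 0.0709 to 0.155. No other member was among them, and a distance over 6 libraries of 2 genotypes mostly reflects the size of the genotype difference.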

How the data were processed

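The authors deposited raw counts per gene, not normalized. Per the labels' protocols a directional kit was used for library construction. Per the submitters' processing notes, the tools named, without role or version, are HISAT2, featureCounts, bcl2fastq, deepTools and Bowtie2, on build dm6; no source used here gives the strand setting or annotation release. The 8 ATAC-seq and ChIP-seq samples were not analysed here.

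Of 17807 IDs, 17710 matched a symbol; positions are from RefSeq Release 6, the assembly of dm6. Genes passing filterByExpr (9186) were TMM-scaled and tested by edgeR's quasi-likelihood test (robust, genotype only), with Benjamini-Hochberg adjustment over all of them. SE is the log2 fold change over the square root of F, and intervals are 95%. Ratios used counts plus 0.5. Alternatives were other scalings, filters and tests, a replicate block, and leaving out libraries. The main tests were unpaired. Deviations of same-numbered libraries from their genotype means correlated at 0.134, 0.106 and 0.407 over genes, each over 0.1. For alternatives only, the numbers were therefore taken to pair the libraries. This comes from the data, not the labels, and sets only replicate 3 apart: nub1 replicate 1 with wildtype replicate 2 gave 0.219, nub1 replicate 2 with wildtype replicate 1 gave 0.121, and pairs of a library numbered 3 with another number gave -0.355 to -0.174. Software was edgeR 4.0.16, DESeq2 1.42.0 and limma 3.58.1 in R 4.3.3, with figures by matplotlib 3.10.9. The code was tested on simulated counts.

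The members and all lists were chosen with earlier results of these data known. Named genes are the members, up to 4 called genes per list with the smallest adjusted p (otherwise the 2 with the highest mean), and the 5 nearest profiles to htl and Ama; other list genes are examples chosen after their values were seen. The listed names Gap1, Arf51F, CF2, Dl and dys were matched as RasGAP1, Arf6, Cf2, Delta and dysf; hbs and tx had no matching ID.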

Additional observations from a re-analysis of the deposited data

How the results depend on the processing

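Every alternative kept the direction of all 10 members, and htl, stumps, Ama, kirre, pyr and twi kept their calls under all 15. For twi this was narrow, with an edgeR adjusted p of 0.04998 without wildtype replicate 3. Over the libraries left out, 5 to 6 members rose and 1 to 2 fell, and with no filter on low counts 1 fell, Him being the one lost. The replicate block gave 6 rises and 3 falls, zfh1 being the one added, and 14 rises and 22 falls in the pathway lists. With it, 2451 of all 9186 genes tested were called higher and 2437 lower. Besides those given beside the results, the block changed no member's call. Of the pathway genes, 7 to 12 rose and 14 to 22 fell over the libraries left out, 7 rising without nub1 replicate 1 or 2. Counts of called genes in small lists moved by over 1.5 times in some alternatives. Over all of them, the range was 1 to 4 rises and 0 to 2 falls in the fusion list (2 and 2 as reported), 0 to 2 rises among adult muscle regulators (1), 0 to 1 falls in embryonic mesoderm (0), 1 to 3 Notch rises (2), 1 to 8 rises and 0 to 3 falls in differentiated muscle (8 and 1), 0 to 1 tendon falls (1), 2 to 5 rises and 1 to 3 falls in haemocytes (3 and 3), 2 to 4 tracheal rises (2), 0 to 1 notum falls (0), 0 to 2 rises and 1 to 4 falls in fat body (2 and 2), and 1 to 3 rises and 1 to 5 falls in staging (2 and 4). The cause was not tested. Over the libraries left out, the log2 differences of the ratios were 1.44 to 1.57 for htl over Ama, 0.54 to 0.75 for Mef2 over Him, 0.50 to 0.55 for htl over twi and -0.14 to -0.08 for ths over pyr. Pairing same-numbered libraries leaves those differences as they are, with an exact sign-flip p of 0.25 for each, the smallest it can give. Leaving out both libraries numbered 3, an alternative chosen after seeing the data, gave 6 rises and 2 falls among the members. Scaling by library size only raised the median log2 fold change of all genes to 0.03. Low counts limit genes such as sing, and genes at the filter's edge were not compared as absent.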
